A study of Ictidomys tridecemlineatus with 31 samples.

Results

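The genes examined were components and regulators of the complement system in the kidney of the 13-lined ground squirrel, a hibernator. They were taken by symbol, ignoring case, from a list of 9 genes (C1qa, C1qb, C1qc, C3, Cfb, Cfd, Cfi, Cd55 and Cd46), and 8 of the 9 had a row among the 12863 genes of the deposited table. Cfb has no row and was not analysed here. C3 had 2 rows, of which the one with the higher mean was used.

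Complement is a cascade of plasma and membrane proteins that tags and lyses targets and recruits leukocytes. C1q starts the classical pathway, factor B and factor D build the C3-cleaving enzyme of the alternative pathway, and C3 is where all pathways meet. Host cells are protected by factor I, which inactivates C3b and C4b, and by the membrane proteins Cd55 and Cd46; in the kidney, C1q transcripts mark resident macrophages and tubule epithelium can itself make C3.

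RNA was measured by poly(A) RNA-Seq in frozen kidney pieces, 1 kidney from each of 31 animals implanted with temperature recorders, and the states were assigned from time of year and body temperature. The active season was represented by summer active animals (SA, fattening in August) and spring dark animals (SpD, homeothermic but still in the dark hibernaculum after their last torpor bout). The hibernation season was represented by early arousing (EAr, beginning to rewarm from torpor), later arousing (LAr, still rewarming), interbout aroused (IBA, shortly after rewarming) and entrance (Ent, cooling into the next bout) animals. The study left K113 (LAr) and K137 (SA) out of its differential expression analysis, so that 4 SA and 5 animals of each other state, 16 females and 13 males, entered the tests here, and K113 and K137 are shown apart. The study also removed K136 (SA), in which it reported raised C1qa and C1qb, and that animal is not among the 31. All animals were untreated, from a captive colony or a commercial supplier, and were perfused with cold buffer before dissection, which clears blood. Experiment 1 (9 animals, 3 each of IBA, Ent and SpD) and experiment 2 (the other 22) used different library kits and instruments, so SA, EAr and LAr came from experiment 2 alone. Values from experiment 2 alone rest on 2 animals each for IBA, Ent and SpD.

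Expression is given as rlog, a regularized log2 of library-size normalized counts from which a batch effect had been removed. The depth behind it is unknown. A difference of 1 is therefore a 2-fold difference on this scale, which pulls differences of genes with low counts toward 0. By mean value, C1qa, C1qb and C1qc lay at percentiles 17.95, 15.94 and 4.641 of all genes. Because the scale is not per transcript length, levels are compared between animals and states but not between genes. Differences were fitted with limma with state, sex and experiment in the model, and q is the Benjamini-Hochberg adjusted p over all 12863 genes. The threshold was q under 0.001, the one used in the study. All 6 proximal tubule markers and both loop of Henle markers (Slc12a1 and Umod) had rows, whereas of 7 lymphocyte and neutrophil markers only Cd79a did. K130 (SpD), K113 and K104 (IBA) had the lowest means of the proximal tubule markers among the 31 animals, and for the differences these animals move most, values with and without them are given. In bulk tissue, fewer cells of a type and less RNA per cell cannot be told apart.

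Across the 6 states, 0 of the 8 complement genes passed q under 0.001, against 9.34% of all genes. At q under 0.05 there were 2 (Cfi, q = 0.0033, and Cd46, q = 0.029) against 46.1% of all genes, and at an unadjusted p under 0.05 there were 3, with Cfd added, against 56.0%. The spread between animals of a state, given by the residual SD of the fit, was wide for several of them. The residual SD of C3 (0.767) lay at percentile 99.15 of all genes, that of Cfd (0.458) at 96.05 and those of C1qa, C1qb and C1qc (0.307, 0.338 and 0.302) between 87.94 and 90.99, whereas that of Cd46 (0.170) lay at 57.29.

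**Figure D1:**
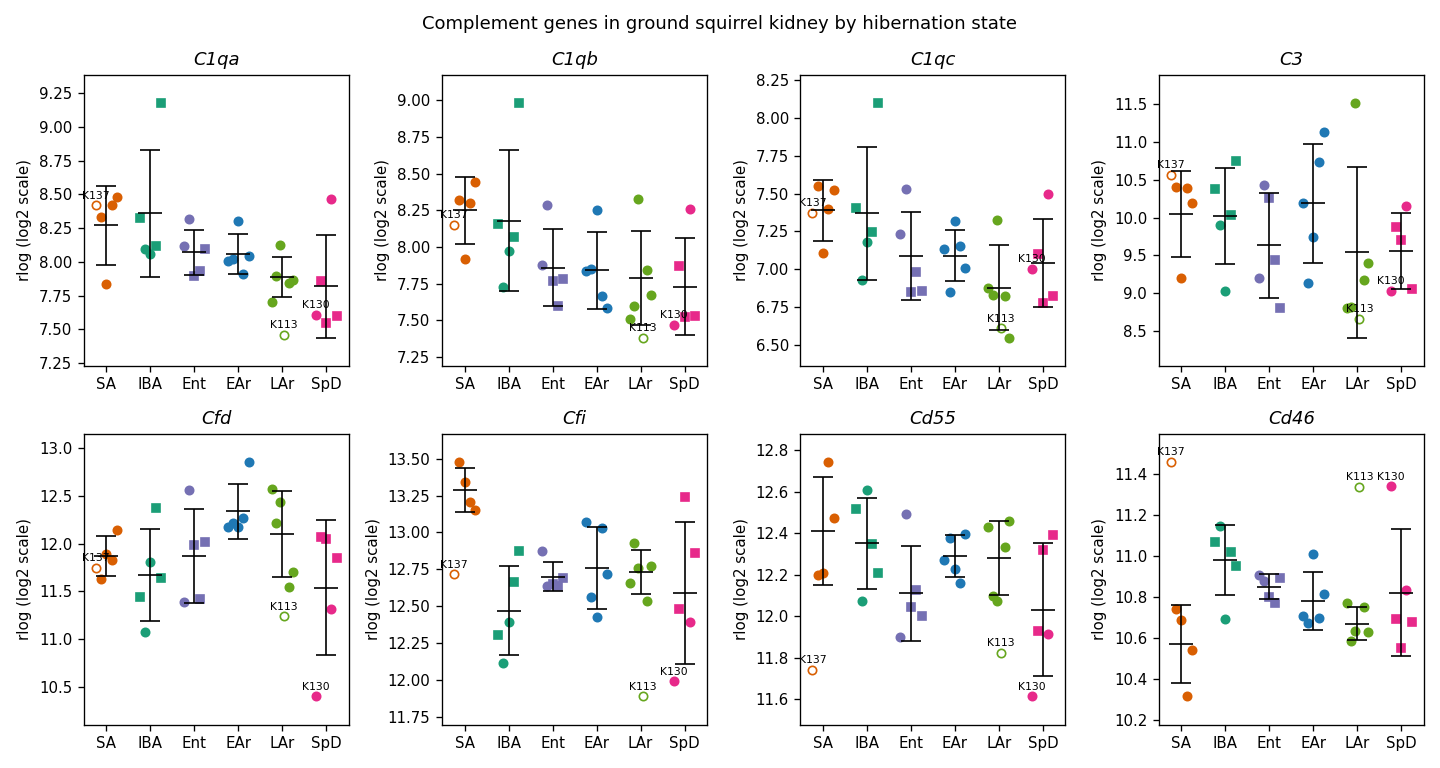
Values by animal for the 8 complement genes in the 6 states (rlog, log2 scale, a separate vertical range for each gene). Squares are experiment 1, circles experiment 2, open symbols K113 and K137, and the bars give mean ± SD of the filled symbols (n = 4 for SA and 5 for the other states); SA stands above IBA without overlap for Cfi only, and K130, K113 and K137 lie at the top of Cd46.

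C1qa, C1qb and C1qc encode the A, B and C chains that together form C1q. Their genes lie side by side, in the order C1qa, C1qc, C1qb, by RefSeq on assembly mIctTri1.hap1, which is not the assembly behind the table (7 of the 8 complement genes matched by symbol). State means were highest in SA and IBA and lowest in LAr and SpD for all 3 genes. For C1qa the means ± SD were 8.27 ± 0.29 in SA (n = 4), 8.36 ± 0.47 in IBA, 8.07 ± 0.17 in Ent, 8.06 ± 0.15 in EAr, 7.89 ± 0.15 in LAr and 7.82 ± 0.38 in SpD (n = 5 each). No 2 neighbours in this order differed at the threshold, with limma q between 0.69 and 0.95.

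The IBA values of C1qa were 8.33, 8.10, 8.06, 8.12 and 9.18 for K1, K104, K171, K4 and K7. Those of LAr were 7.70, 7.90, 8.13, 7.85 and 7.86 for K109, K111, K112, K115 and K116. K7 stood far above the other IBA animals, and K112, the highest LAr animal, reached into the IBA range. The fitted difference of IBA over LAr was 0.50 (SE 0.21, limma q = 0.089) for C1qa, 0.40 (SE 0.23, q = 0.21) for C1qb and 0.56 (SE 0.20, q = 0.060) for C1qc. Without K7 the differences of C1qa and C1qc were 0.35 (q = 0.14) and 0.42 (q = 0.096), and in experiment 2 alone, which holds all LAr animals, they were 0.18 (q = 0.62) and 0.16 (q = 0.65). SpD was below IBA by a fitted -0.54 for C1qa (SE 0.18, limma q = 0.057), -0.45 for C1qb (SE 0.20, q = 0.15) and -0.33 for C1qc (SE 0.18, q = 0.25), and without K7 those of C1qa and C1qb were -0.31 (q = 0.20) and -0.24 (q = 0.46). In experiment 2 alone it was 0.03 for C1qb and -0.03 for C1qa. None of these passed.

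The chains followed each other from animal to animal. Over 29 animals, Pearson's r was 0.92 between C1qa and C1qb (Spearman's rho 0.84), 0.87 between C1qa and C1qc (rho 0.84) and 0.90 between C1qb and C1qc (rho 0.82), each with an adjusted p of 9.3e-05 over the 28 pairs of complement genes, from an unadjusted permutation p of 1e-05, the smallest that 100000 resamples can give. Without the 2 animals farthest from the median of the first gene, r was 0.87, 0.79 and 0.84. It was 0.94 to 0.98 in experiment 1 (n = 9), 0.80 to 0.88 in experiment 2 (n = 20), and 0.85 to 0.91 on the residuals after state, sex and experiment were fitted. K7 was the highest of the 29 animals for all 3 chains, at 9.18, 8.98 and 8.10, and K6 and K9 (both SpD) were among the lowest 4 for each of them.

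C1q transcripts moved with other leukocyte genes. Of 22 macrophage and leukocyte markers other than C1q, 11 had a row, and their mean correlated with C1qa at r = 0.91, with C1qb at 0.87 and with C1qc at 0.88 (rho 0.86, 0.77 and 0.86, permutation adjusted p at most 5.3e-05 over 16 relations with marker means, n = 29). Without K141 and K7 these were 0.84, 0.76 and 0.80, and in experiment 2 they were 0.84, 0.77 and 0.80. The mean of the markers was 9.39 ± 0.42 in IBA (n = 5), 9.47 ± 0.23 in SA (n = 4) and 8.92 ± 0.08 in LAr (n = 5), and K7 had the highest value at 10.09. Between IBA and LAr, 9 of the 11 markers had a fitted difference above 0 (median 0.64, against -0.0074 over all genes). Cd68 (-0.36, SE 0.22, limma q = 0.26) and Apoe (-0.56, SE 0.32, limma q = 0.23) lay below 0. At q under 0.05 there were 3 of 11 against 18.0% of all genes, and at q under 0.001 there were 0 against 1.43%. Csf1r, the receptor through which macrophages receive their survival signal, differed by 1.02 (SE 0.25, limma q = 0.0083) and Cd74, the invariant chain of MHC class II, by 1.0 (SE 0.29, limma q = 0.021), and in experiment 2 alone these differences were 0.46 (q = 0.19) and 0.50 (q = 0.33). How much of the C1q values the leukocyte content of a piece accounts for was not tested. The genes most like C1qa over the 29 animals were Tyrobp (r = 0.90), LYZ (0.88) and HLA-DQA1 (0.85), those most like C1qb were LYZ (0.83), Arhgap45 (0.83) and Tyrobp (0.82), and those most like C1qc were C1r (0.88), Csf1r (0.86) and Cmtm3 (0.85).

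**Figure D2:**
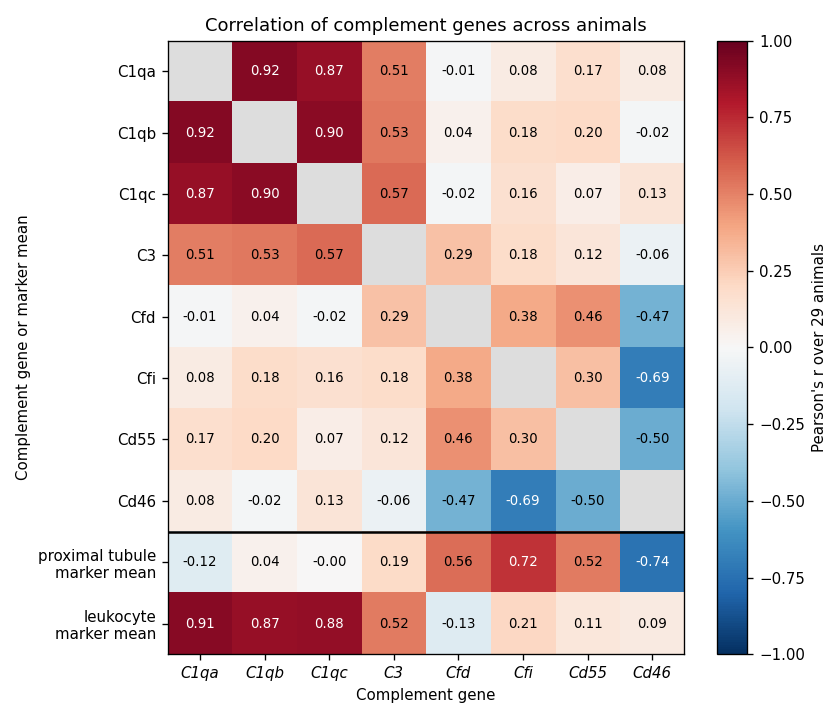
Pearson's r over 29 animals between the 8 complement genes and, under the line, between them and the mean of 6 proximal tubule markers or of 11 leukocyte markers. The C1q chains form 1 block with the leukocyte mean (0.87 to 0.92), and Cd46 has negative values with Cfi (-0.69) and the proximal tubule mean (-0.74).

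C3, the protein on which all activation pathways converge, was the most variable of the 8 genes from animal to animal and showed no difference between states. Its range over 29 animals was 8.80 to 11.52, which is 6.59-fold, and 13.07% of its variance lay between states. The LAr values were 8.80, 8.82, 11.52, 9.17 and 9.40 for K109, K111, K112, K115 and K116. The EAr values were 10.19, 9.14, 9.74, 10.74 and 11.14 for K154, K156, K157, K158 and K165. A single LAr animal, K112, was thus the highest of all, while the other LAr animals were among the lower ones, and EAr animals were spread over most of the range. State means ran from 9.54 ± 1.13 in LAr to 10.19 ± 0.79 in EAr (n = 5 each), with limma q = 0.67 across states, and the fitted difference of LAr from EAr was -0.58 with a 95% confidence interval of -1.52 to 0.36 (q = 0.80). In each of the 7 pairs of consecutive states, the 95% interval of C3 reached past a 2-fold difference in at least 1 direction.

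The second C3 row, annotated from a sequence match, had a mean of 6.94 against 9.82 for the row used, and both correlated at r = 0.95 (rho 0.96, permutation p of 1e-05, the smallest possible, n = 29; 0.93 without K112 and K165). Reads could be shared between near-identical copies, so how the total is split between these rows is uncertain, but neither row passed across states (q = 0.67 and 0.79). C3 correlated with the C1q chains at r = 0.51, 0.53 and 0.57 (rho 0.59, 0.53 and 0.63, permutation adjusted p between 0.0023 and 0.016, n = 29) and kept 0.49 to 0.56 without the 2 farthest animals. K112 was also the highest LAr animal for all 3 C1q chains. The genes most like C3 were Timp1 (r = 0.74), Mfap4 (0.72) and Igf1 (0.64).

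Cfd encodes factor D, the protease that cleaves factor B once that is bound to C3b. Its state means were highest in the arousing animals, 12.34 ± 0.29 in EAr and 12.10 ± 0.45 in LAr, and lowest in SpD at 11.54 ± 0.71 (n = 5 each). The EAr values were 12.17, 12.21, 12.17, 12.26 and 12.86 for K154, K156, K157, K158 and K165. The Ent values were 11.39, 12.56, 11.98, 11.42 and 12.02 for K155, K167, K2, K5 and K8. Of the 5 Ent animals, 4 lay below every EAr animal, and K167 lay above all but K165. The fitted difference of EAr over Ent was 0.75 (SE 0.31, limma q = 0.59; 0.38 in experiment 2 alone). With single animals left out it ran from 0.59 to 1.26 (q between 0.095 and 0.9). IBA was below LAr by a fitted -0.70 (SE 0.30, q = 0.11). EAr was above SpD by a fitted 1.09 (SE 0.31, q = 0.016), and IBA was below EAr by -0.96 (SE 0.31, q = 0.034). The EAr/SpD and IBA/EAr differences are not between consecutive states and were not refitted. None of these differences passed, and q across states was 0.058. K130 (SpD) had by far the lowest value, 10.40 against 11.31 to 12.07 in the other SpD animals. Correlations of Cfd with Cd55 (r = 0.46, rho 0.31) and Cd46 (r = -0.47, rho -0.29), each with a permutation adjusted p of 0.036 for r (n = 29), rested on K104 and K130, without which they were 0.20 and -0.09. Most like Cfd were Slc16a13 (r = 0.77), Cplx2 (0.76) and Eya1 (0.75), whose r without the 2 farthest animals was between 0.52 and 0.57.

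Cfi encodes factor I, the plasma protease that, with a cofactor, cuts C3b and C4b into inactive fragments. It was the only one of the 8 genes to pass the threshold in a comparison of states among the 29 animals, and its highest values were those of summer. The SA values were 13.48, 13.34, 13.21 and 13.15 for K138, K139, K140 and K141. The IBA values were 12.30, 12.11, 12.40, 12.66 and 12.87 for K1, K104, K171, K4 and K7. Every SA animal of the 29 was above every IBA animal, and only K6 (SpD, 13.24) among the animals of other states reached into the SA range.

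Between SA and IBA, Cfi fell by 1.01 on the fitted log2 scale, which is 2.02-fold (SE 0.18, 95% confidence interval -1.40 to -0.63, limma q = 0.00052). One of 8 complement genes thus passed in this comparison against 3.15% of all genes. At q under 0.05 there were 2 of 8, with Cd46, against 22.9%, and the same 2 had an unadjusted p under 0.05 against 36.3%. Animals of the groups did not overlap for 1 of 8, Cfi, against 18.8% of all genes. The plain means differed by less (13.29 ± 0.15, n = 4, and 12.47 ± 0.30, n = 5) because the model carries a term for experiment, in which Cfi was lower in experiment 2 by a fitted -0.31 (limma q = 0.83). In experiment 2 alone the difference was -1.09 (q = 0.0011), and with K113 and K137 included it was -0.90 (q = 0.0094), each short of the threshold. K137, the SA animal left out, had 12.72, below the other SA animals and below K7 of IBA. The call also failed without K104 (-0.94, q = 0.0044), K138 (-0.95, q = 0.0025), K139 (-1.0, q = 0.0023), K140 (-1.04, q = 0.0013) or K171 (-1.06, q = 0.001 after rounding and just above the threshold before it).

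Against the other states, SA was higher than SpD by a fitted 0.89 (SE 0.18, limma q = 0.0072) and higher than EAr, its neighbour in the order of means, by 0.53 (SE 0.17, q = 0.022). Neither passed. Without K130, the SpD animal with the lowest Cfi (11.99), the SA over SpD difference was 0.69 (q = 0.076), and with K113 and K137 included it was 0.78 (q = 0.064). In experiment 2 alone, where K130 and K84 are the only SpD animals, it was 1.10 (q = 0.00095). The means of the remaining states were 12.76 ± 0.28 in EAr, 12.73 ± 0.15 in LAr, 12.70 ± 0.10 in Ent, 12.59 ± 0.48 in SpD and 12.47 ± 0.30 in IBA (n = 5 each), with limma q between 0.64 and 0.98 for neighbours. IBA was below EAr by a fitted -0.48 (SE 0.18, q = 0.061) and below LAr by -0.45 (SE 0.18, q = 0.077), both short of the threshold. The mean of the 4 hibernation states was below that of the 2 active states by a fitted -0.28 (SE 0.10, q = 0.034), and in experiment 2 alone by -0.13 (q = 0.32).

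Cd55, or decay-accelerating factor, displaces the enzymes that cleave C3 and C5 from the cell surface. Its means ran from 12.41 ± 0.26 in SA (n = 4) to 12.03 ± 0.32 in SpD (n = 5), q across states was 0.16, and its residual SD (0.232) lay at percentile 77.04 of all genes. The SpD values were 11.61, 11.93, 12.32, 11.92 and 12.39 for K130, K3, K6, K84 and K9, and those of SA were 12.20, 12.21, 12.74 and 12.48 for K138 to K141. The fitted difference of SA over SpD was 0.43 (SE 0.16, limma q = 0.088), which without K130 was 0.24 (q = 0.45). The range of SpD therefore held part of that of SA, and its lowest value was K130. The genes most like Cd55 were Cnn3 (r = 0.78), Hoxb9 (0.72) and Dok4 (0.72).

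Cd46, or membrane cofactor protein, is the cell surface cofactor with which factor I cuts C3b. In RefSeq its gene lies next to Cr1, with 3 protein-coding genes between it and Cd55. It ran the other way to Cfi, with the lowest mean in SA. The SA values were 10.74, 10.69, 10.32 and 10.54 for K138 to K141. The IBA values were 11.07, 11.15, 10.69, 11.02 and 10.95 for K1, K104, K171, K4 and K7. Only K171 among the IBA animals fell within the range of SA. The fitted difference of IBA over SA was 0.50 (SE 0.12, 1.42-fold, limma q = 0.0055), and over LAr it was 0.39 (SE 0.12, q = 0.023), both short of the threshold. Without K171, the IBA animal with the lowest Cd46, the first was 0.65 and passed (q = 0.00062). Without K104 it was 0.45 (q = 0.029), without K140 0.40 (q = 0.024), and with K113 and K137 included 0.32 (q = 0.27). In experiment 2 alone it was 0.39 (q = 0.080). The difference of IBA over LAr was 0.29 (q = 0.32) with K113 and K137 and 0.28 (q = 0.25) in experiment 2 alone. Without K104 it was 0.34 (q = 0.094), and without K171 it was 0.54 (q = 0.0022). The 3 highest values of all 31 animals were those of K137 (11.46), K130 (11.34) and K113 (11.34). The genes most like Cd46 were Syt11 (r = 0.89), Camsap2 (0.88) and Mpzl1 (0.87).

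Cfi and Cd46 were inversely related. Over 29 animals r was -0.69 (rho -0.59, permutation adjusted p = 0.00063 for r and 0.0047 for rho over the 28 pairs), -0.66 without K130 and K138, -0.60 in experiment 1 (n = 9), -0.71 in experiment 2 (n = 20) and -0.50 on the residuals. Both also followed the mean of the 6 proximal tubule markers, Cfi at r = 0.72 (rho 0.65) and Cd46 at r = -0.74 (rho -0.65), with permutation adjusted p of at most 0.0008 (n = 29, shuffled across states). Without K104 and K130, which were at the low end of that mean, r was 0.57 and -0.56. For Cfi it was 0.16 in experiment 1 (n = 9) and 0.88 in experiment 2 (n = 20), and for Cd46 it was -0.65 and -0.78. The marker mean itself was 15.24 ± 0.12 in SA (15.08 to 15.35, n = 4) and 14.32 ± 0.41 in IBA (13.78 to 14.65, n = 5), without overlap, and the part of the tubule content of the pieces in the differences of Cfi and Cd46 between SA and IBA was not tested. The genes most like Cfi were FTH1 (r = 0.84), Dnajc13 (0.84) and Slc35d1 (0.83).

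**Figure D3:**
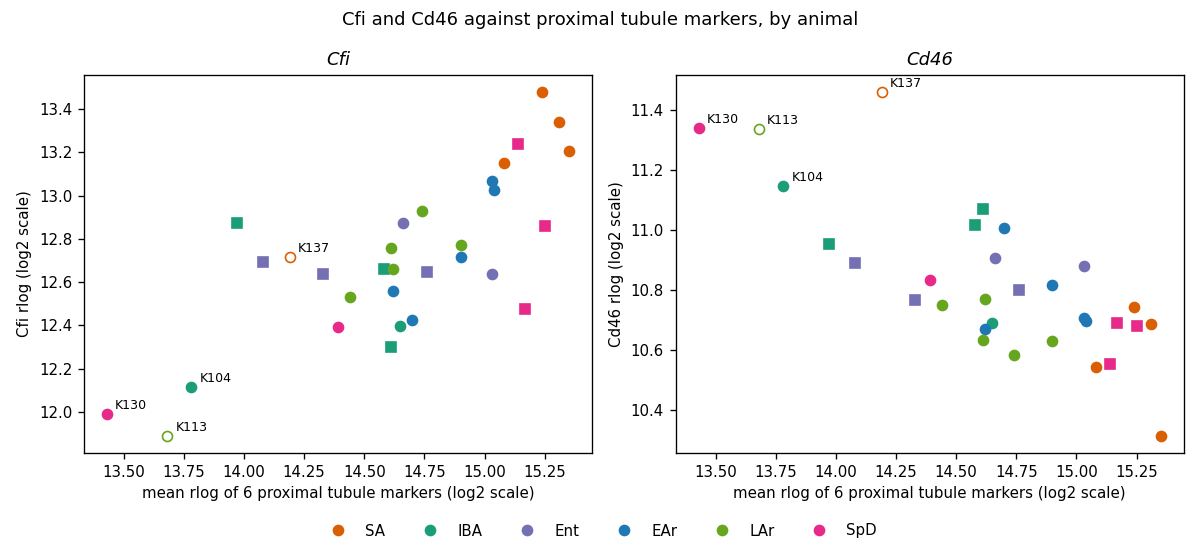
Cfi (left) and Cd46 (right) in each of 31 animals against the mean of 6 proximal tubule markers, all in rlog on the log2 scale, colored by state. Squares are experiment 1, circles experiment 2, and open symbols K113 and K137; K130, K113 and K104 have low tubule markers (13.43, 13.68 and 13.78) with low Cfi and high Cd46, and the 4 filled SA animals lie at the opposite corner.

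The remaining steps of the yearly cycle gave 0 of 8 complement genes at q under 0.001. From SpD to SA this was against 0.0544% of all genes, and 1 of 8 (Cfi) was at q under 0.05 against 10.5% and 4 (C1qb, Cfi, Cd55 and Cd46) at an unadjusted p under 0.05 against 29.1%. The fitted SA over SpD differences of these 4 were 0.49, 0.89, 0.43 and -0.35. Without K130 they were 0.33 (limma q = 0.5), 0.69 (q = 0.076), 0.24 (q = 0.45) and -0.16 (q = 0.46). From IBA to Ent the background was 0.746% at q under 0.001, 13.1% at q under 0.05 and 29.4% at an unadjusted p under 0.05, and 0 of 8 passed at any of these levels. From Ent to EAr it was 0.132%, 0.257% and 7.16%, with 0, 0 and 1 of 8 (Cfd). From EAr to LAr it was 0.295%, 0.575% and 8.33%, with 0 of 8 each time. From LAr to IBA it was 1.43%, 18.0% and 33.4%, with 0, 1 (Cd46) and 5 of 8 (C1qa, C1qc, Cfd, Cfi and Cd46), and the animals of these states did not overlap for 0 of 8 against 13.7%. From IBA to SpD it was 1.25%, 11.9% and 26.6%, with 0, 0 and 3 of 8 (C1qa, C1qb and Cd55). These comparisons share animals, so their counts are not independent.

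Between the hibernation season and the active season, 0 of 8 passed against 9.73%, and Cfi alone was counted both at q under 0.05 (33.4%) and at an unadjusted p under 0.05 (43.4%). Between females and males, 0 of 8 were counted at each level, against 0.0233%, 0.218% and 6.41%. The largest fitted difference between the sexes among the 8 genes was that of C3, at -0.33 in females relative to males (SE 0.27, limma q = 0.88).

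**Figure D4:**
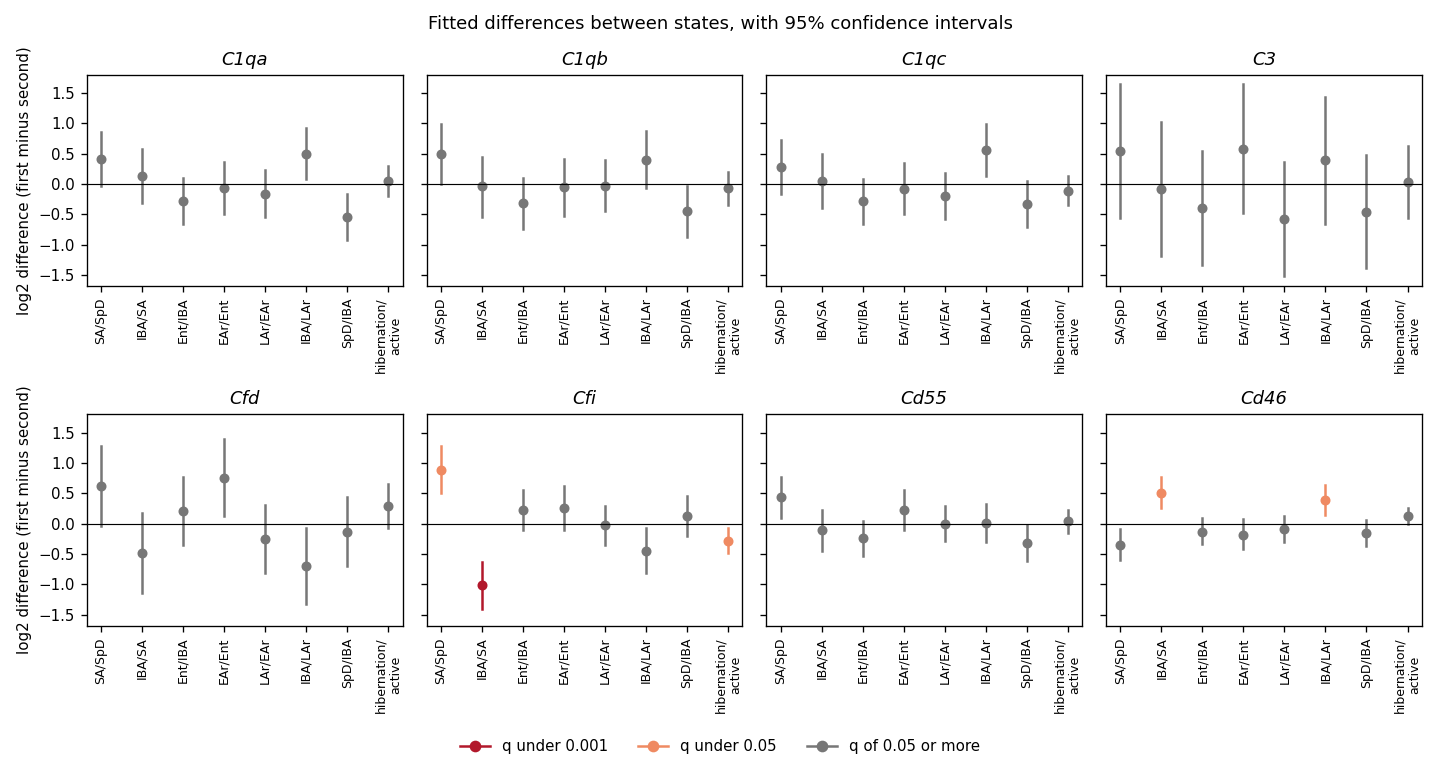
Fitted log2 difference (first state minus second) with its 95% confidence interval for each complement gene in the 7 pairs of states and between the mean of 4 hibernation states and that of 2 active states, from 29 animals. Only the IBA/SA difference of Cfi (-1.01) has q under 0.001, and the intervals of C3 are the widest.

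K113 and K137 are given apart. The study found both to be outliers when it clustered animals on all genes it kept. For them and for K130, the share of all genes outside the range of their state was not counted. K113 lay below the other 5 LAr animals for C1qa (7.46), C1qb (7.38), C3 (8.66), Cfd (11.24), Cfi (11.89) and Cd55 (11.82), within them for C1qc (6.61) and above them for Cd46 (11.34 against 10.58 to 10.77). Its values of C1qa, C1qb, C3 and Cfi were the lowest of all 31 animals. K137 lay above the other 4 SA animals for C3 (10.57) and Cd46 (11.46 against 10.32 to 10.74), below them for Cfi (12.72) and Cd55 (11.74 against 12.20 to 12.74), and within them for the C1q chains and Cfd. K130, which the study kept, resembled K113 in direction. It lay below the other 4 SpD animals for C1qb (7.47), C3 (9.03), Cfd (10.40), Cfi (11.99) and Cd55 (11.61) and above them for Cd46 (11.34 against 10.55 to 10.83).

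Other genes of the cascade give the setting, with values by state for all of them in the plot of complement genes by state. Of 19 other genes listed under initiation of the cascade, 5 had a row (C1r, C1s, C2, C4a and Colec12). Across states 0 of these 5 passed q under 0.001 and 5 were at q under 0.05, against 9.34% and 46.1% of all genes. Colec12, a collectin, had the largest F, with SpD above SA (SA/SpD difference -0.71, SE 0.15, limma q = 0.0088; -0.57 and q = 0.083 without K130), which did not pass. C4a, which encodes C4, a substrate of C1s, was at 12.06 ± 0.20 in SA (n = 4), and its means in the other states ran from 10.10 ± 0.40 in LAr to 10.84 ± 0.71 in IBA (n = 5 each). The fitted difference of SA over SpD was 2.04 (SE 0.48, limma q = 0.012), which did not pass, and without K130 it was 1.48 (q = 0.12). For C1r, the protease that activates C1s, the fitted difference of IBA over LAr was 0.82 (SE 0.27, limma q = 0.039), short of the threshold, and in experiment 2 alone it was 0.28 (q = 0.58).

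Of 7 genes of the terminal pathway, which forms the lytic pore, C7 and C8a had a row. C8a, the alpha chain of C8, was the 1 of these 2 to pass across states (limma q = 5.9e-05), against 9.34% of all genes. Its mean was 10.31 ± 0.33 in SA (n = 4), 9.58 ± 0.35 in SpD and 8.30 ± 0.59 in IBA (n = 5 each), and it fell by 2.21 between SA and IBA (SE 0.34, q = 8.4e-05) and by 1.46 between the active states and the hibernation states (SE 0.18, q = 3e-06). C7 was at q = 0.017 across states. Of 20 further regulators 6 had a row. Across states 0 of 6 passed q under 0.001 and 3 were at q under 0.05, against 9.34% and 46.1% of all genes. Clu, or clusterin, which binds the forming pore and also marks injured tubules, had a fitted difference of SpD from IBA of -1.77 (SE 0.33, limma q = 0.0011), just short of the threshold. It was -1.92 (q = 0.00084) without K130 and -1.32 (q = 0.14) in experiment 2 alone. The difference of the C1 inhibitor Serping1 in IBA over LAr was 0.99 (SE 0.31, limma q = 0.028), which did not pass and was 0.49 (q = 0.36) in experiment 2 alone. Of 12 receptors 4 had a row (Itgb2, C1qbp, Cd93 and Scarf1). Of these, 0 passed q under 0.001 across states and 1 was at q under 0.05, against 9.34% and 46.1%. Between SA and IBA, the median difference was -0.28 in the 5 initiation genes, -1.53 in the 2 terminal genes, 0 in the 6 regulators and -0.13 in the 4 receptors, beside 0.0293 over all genes.

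**Figure D5:**
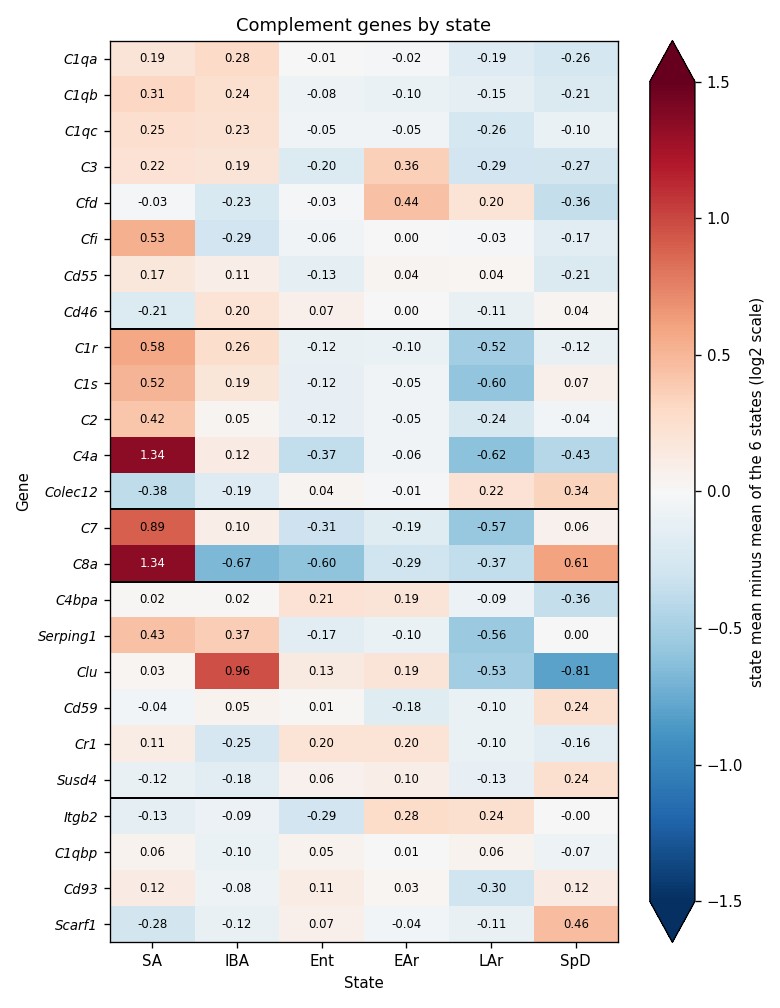
Mean of each state minus the mean of the 6 state means (log2 scale) for the 8 complement genes (top block) and 17 others found in the table, in the order initiation, terminal pathway, regulators and receptors, from 29 animals. C4a and C8a share the SA maximum of Cfi, as do C1qb, C1qc, Cd55, C1r, C1s, C2, C7 and Serping1. The largest positive value outside SA is that of Clu in IBA.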

How the data were processed

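RNA-Seq values were analysed from 31 kidneys in 6 states. From reads trimmed by cutadapt and cleared of mitochondrial sequence by HISAT2, the authors obtained Salmon estimates per gene on HiC_Itri_2, converted them to rlog with DESeq2 after filtering on rlog level, and took out the batch difference by limma. What the authors deposited is this batch-corrected rlog, a log2 scale, here between 4.11 and 19.79. Depth is unknown, and the error of a value is known only from how animals of a state differ.

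The authors' own test was DESeq2 on uncorrected counts. Here limma 3.58.1 under R 4.3.3 took its place, with a linear model of state, sex and experiment for every gene in 29 animals, eBayes with trend, and Benjamini-Hochberg adjustment over 12863 genes within each comparison. The degree of freedom spent on the earlier batch correction is not counted. The model was tested on simulated data. Correlations used 2-sided permutation tests with 100000 resamples in Python 3.11.15 with scipy 1.17.1, and plots were drawn with matplotlib 3.10.9. The resampling did not hold state or experiment fixed, so differences shared between states enter these p-values. Correlations with the marker means were not repeated on residuals.

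Groups and animal names are those of the labels, and each sample is a separate animal. The complement genes, the further lists and the markers were chosen with earlier results of these data known. Named genes are the 8 complement genes, genes of the further lists that passed q under 0.001, up to 3 more per list by F, and the 3 genes with a symbol most correlated with each complement gene. The other genes of the lists that are named (the receptors, C1s, C2, Cd59, Cd68 and Apoe) were chosen after their values were seen. The fit was repeated with K113 and K137 added, without experiment 1, with each of the 29 animals removed in turn, with only the 2 states compared, with the experiment or the sex term dropped, without the trend, with robust moderation, with weights per animal, on genes of mean 8 or more, on values centered by median, and at q of 0.05 and 0.01, and C3 was also read from its second row. A result from the leukocyte list is not reported here. For further genes printed with a difference, other than Cd68 and Apoe, 3 of these fits were added after their values were seen. Sequences were not used here.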

Additional observations from a re-analysis of the deposited data

Results flagged for a closer look

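In each of the 48 groups of 4 or 5 animals (8 genes in 6 states), the highest and lowest animals were compared with their nearest neighbour, and 5 stood farther off than Dixon's 95% limit for a group of that size. Chance flags about 1 in 20 such groups. In IBA, K7 had a C1qa value of 9.18, with the next animal at 8.33. In SA, K139 had a C3 value of 9.20, with the next at 10.20, and in LAr, K112 had a C3 value of 11.52, with the next at 9.40. In EAr, K165 had a Cfd value of 12.86, with the next at 12.26, and in Ent, K155 had a Cfi value of 12.87, with the next at 12.69.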

How the results depend on the processing

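The count of complement genes past the threshold across states was 0 and became 1 in experiment 2 only, 2 at q under 0.05 and 1 at q under 0.01. For SA/SpD it was 0 and became 1 (Cfi) in each of these 3 settings, with only K130 and K84 as SpD in experiment 2. For IBA/SA it was 1 and became 0 with all 31 animals, with no term for experiment (Cfi -0.83, q = 0.0024), with animal weights (-0.89, q = 0.0021), in experiment 2 only and in a fit of the 2 states alone (-0.92, q = 0.032), and 2 at q under 0.05 or 0.01. Leaving out single animals gave 0 to 1, with 0 without K104, K138, K139 or K140, and without K171 the gene past the threshold was Cd46 instead of Cfi; the Cfi difference ran from -1.07 to -0.94. At q under 0.05, IBA/LAr and the seasons gave 1 each. The other counts stayed at 0, and without K130 the counts at q under 0.001 were those of the full set. The C1qb difference SpD/IBA (-0.45) was 0.03 in experiment 2 only, the only sign change. The mean of C3 was 6.94 with the other row. The causes were not tested. Apart from these values, each refitted difference of a complement gene kept its direction and its side of the threshold. This leaves aside the looser thresholds and the values given above for single animals or experiment 2. Refitted were the differences with an unadjusted p under 0.05 in the 7 pairs of consecutive states or between the seasons. For 9 further genes, refitted after their values were seen with all 31 animals, in experiment 2 only and without K130, only Clu changed side. No paired analysis was possible because the states share no animals or replicate numbers. Depth is unknown, SA, EAr and LAr have no animals of experiment 1, and the error of the authors' batch correction is not counted.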

Other observations

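Some of the further complement genes, but not all, lay outside the range of the other animals of the state in each of K113, K137 and K130. For Clu, K113 had 15.64 (the other LAr animals 12.68 to 12.98), K137 had 16.04 (the other SA animals 12.47 to 14.26) and K130 had 13.05 (the other SpD animals 12.25 to 12.61). C1s, Colec12 and Cd59, which protects cells from the lytic pore, were above, and C2 and C1qbp below, the other animals of the state in each of the 3. These genes were picked for that agreement. C1r lay within the range in each of the 3, and Serping1, C7 and Scarf1 lay within it in at least 1. The same share over all genes was not counted for K113, K137 and K130. The proximal tubule marker means of these animals were 13.68, 14.19 and 13.43, at ranks 2, 6 and 1 from the lowest of 31, and their leukocyte marker means were 9.27, 9.66 and 8.94.

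Among the 11 leukocyte markers, 1 passed across states, against 9.34% of all genes. This was Fcer1g, a signaling adaptor of Fc receptors (limma q = 6e-04). It fell by 0.59 in the hibernation season relative to the active season (SE 0.10, q = 0.00014). Fcer1g was highest in SA at 8.16 ± 0.29 (n = 4) and lowest in EAr at 7.13 ± 0.22 (n = 5).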
